A study of Homo sapiens with 10 samples.

Results

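The zinc-sensing transcription factor MTF1 and 9 transporters that move zinc across cell membranes were followed on arrays of cells given an excess of 1 microRNA. The 10 genes were listed by name: MTF1, 5 exporters of the SLC30 family (SLC30A1, SLC30A5, SLC30A6, SLC30A7 and SLC30A9) and 4 importers of the SLC39 family (SLC39A1, SLC39A6, SLC39A7 and SLC39A10). They are 10 of 35267 genes with a probe on the array, and 9 of them were among the 17379 genes with enough signal to be tested. The tenth, SLC30A6, had a single probe that was not well above background on any of the 10 arrays, so no fold is given for it.

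The cells were MEG-01, a single human line derived from a megakaryoblastic leukemia, and the study asked how its transcripts respond to miR-1225-3p, a microRNA of platelets. All cells were nucleofected and collected 24 hours later. One group received 200 nM of the miR-1225-3p precursor (5 arrays) and the other 200 nM of a scrambled control precursor (5 arrays). The source field of the scrambled samples calls them untreated, while their titles and the design text describe transfection, which was followed here. Replicates came from separate transfections done at the same time in 1 cell line.

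Zinc exporters of the SLC30 family lower zinc in the cytosol, by moving it out of the cell or into organelles, and importers of the SLC39 family raise it. MTF1 binds DNA when zinc is plentiful and drives the genes of metallothioneins, small proteins that bind zinc, and of SLC30A1, the exporter of the plasma membrane. Platelets and their precursors hold zinc in granules.

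The microRNA that was added is shown for reference, as RefSeq gives it (GRCh38.p14, chr16:2090195-2090216, minus strand), with its seed, bases 2 to 8, in capitals. No search for seed matches in the zinc genes was made.
hsa-miR-1225-3p: uGAGCCCCugugccgcccccag

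Each array carried 42405 probes on 58717 spots besides controls. The share of spots well above background was between 41.95% and 53.85% (median 47.06%) in the miR-1225-3p group and between 43.09% and 61.18% (median 54.56%) in the scrambled group, with 0 saturated spots. Precision is limited by having 5 arrays in each group. Values are log2 of the background-corrected signal after cyclic loess normalization across arrays, well above background is the scanner software's own flag, and a gene or probe is termed called at a limma adjusted p under 0.05. A log2 ratio is the mean log2 signal of miR-1225-3p cells minus that of scrambled cells. Slide 1 of the 2 slides used carried 2 miR-1225-3p and 3 scrambled samples, and slide 2 carried 3 miR-1225-3p samples, replicate 5 included, and 2 scrambled samples. On slide 2 alone limma called 0 genes, with 1220 at an unadjusted p under 0.05, so only the size of a ratio is read there. miR-1225-3p replicate 5 stood apart from its group: on the first principal component, with 69.6% of the variance, it scored 56.74, inside the 48.65 to 79.87 of the scrambled arrays, while the other 4 scored between -133.4 and -52.98. Results are therefore given with and without it. Of 10 megakaryoblast markers, 7 were tested and 5 of these (ITGA2B, ITGB3, GATA1, TAL1 and NFE2) were well above background on all 10 arrays, whereas PF4 and VWF were among those that did not pass the filter. ITGA2B and NFE2 were lower in miR-1225-3p cells, the former with a log2 ratio of -1.39 (limma adjusted p = 0.0437) and the latter with -0.43 (limma adjusted p = 0.0255). All 7 tested markers had a negative log2 ratio, with a median of -1.04. The log2 of their summed signal was between 12.76 and 13.08 with miR-1225-3p (13.08 on replicate 5) and between 13.31 and 13.52 with scrambled. This sum mostly follows NFE2, the brightest of them, with a mean log2 signal of 12.39 with miR-1225-3p and 12.82 with scrambled. Without replicate 5 limma called 5 of the 7 lower: ITGA2B with -1.85, GP1BA with -1.67, GP9 with -1.62, GATA1 with -1.28 and NFE2 with -0.39. That fit called 9624 of all 17379 genes, 5039 of them lower. GP1BA met the filter through its scrambled arrays alone, so its ratio is given as a description. The T cell marker CD3D and the monocyte marker CD14 were also well above background on all 10 arrays and were not called. CD3E was well above background on 4 arrays and was called higher. It met the filter through its miR-1225-3p arrays alone, so its call is given as a description. The B cell marker MS4A1 did not pass the filter. The part of these markers in the zinc results was not tested.

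Zinc genes fell more often than they rose. Of the 9 genes tested, 5 were lower in miR-1225-3p cells (SLC30A1, SLC30A9, SLC39A1, SLC39A7 and SLC39A10), 0 were higher, and 4 were not called (MTF1, SLC30A5, SLC30A7 and SLC39A6), at an adjusted p under 0.05 from limma. Over all genes tested, 18.1% were called lower and 17% higher. The groups did not overlap for 3 of the 9 (SLC30A1, SLC39A1 and SLC39A10), against 12.7% of all genes tested. The median log2 ratio of the 9 was -0.83, and that of all genes tested was -0.06. These counts and the median include SLC30A9 and SLC39A10, which passed the filter only through the scrambled arrays. Among probes well above background on all 10 arrays, 3 of 6 zinc genes were called lower, against 2303 of all 12048 genes tested. At an unadjusted p under 0.05 the same fit counted the same 5 genes and 0 higher, where it counted 8533 of all 17379 genes. With array weights limma called 2 zinc genes higher (SLC30A5 and SLC39A6) and 6 lower. In that setting 5819 of all 17379 genes were called higher and 6222 lower. In RNA from whole cultures, fewer cells of a type and less RNA per cell cannot be told apart.

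**Figure D1:**
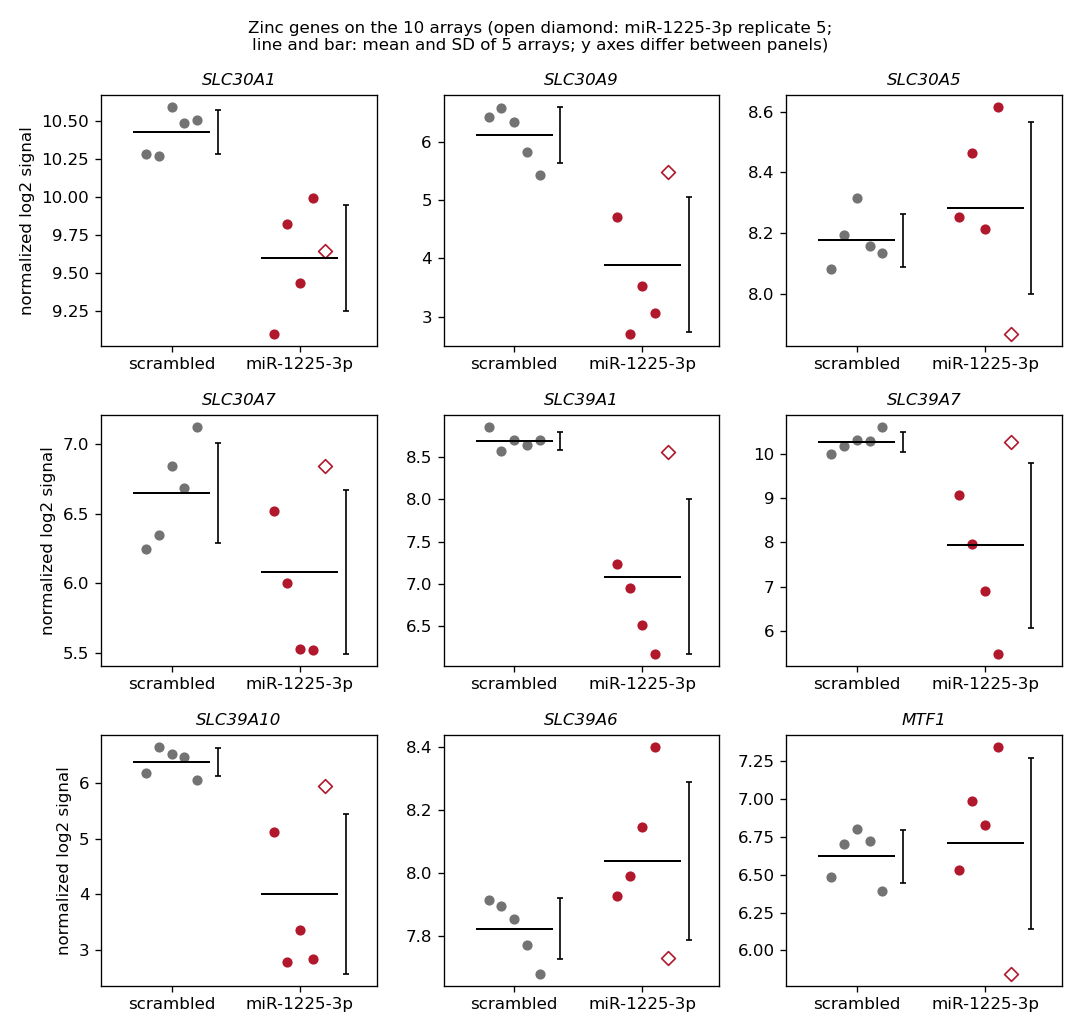
Normalized log2 signal of the 9 tested zinc genes on the 5 scrambled (grey) and 5 miR-1225-3p arrays (red), in replicate order from left to right, with the open diamond for miR-1225-3p replicate 5 and line and bar for the mean and SD of 5 arrays; each panel has its own axis. The 5 miR-1225-3p points of SLC30A1 all lie under the scrambled points, those of SLC39A7 spread from 5.46 to 10.29, and replicate 5 is the lowest of all 10 arrays for MTF1 and SLC30A5.

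MTF1, the sensor, was not called. Its normalized log2 signal was 6.53, 6.99, 6.83, 7.35 and 5.84 on miR-1225-3p replicates 1 to 5 and 6.48, 6.70, 6.80, 6.72 and 6.39 on scrambled replicates 1 to 5. The groups overlapped, and the miR-1225-3p group held both the highest and the lowest array. With all arrays the log2 ratio was 0.09 (SE 0.253, limma adjusted p = 0.797), with a 95% interval from -0.47 to 0.65 that leaves room for a change of either sign. Without miR-1225-3p replicate 5 it was 0.30 (SE 0.174, limma adjusted p = 0.166). The SD was 0.566 in miR-1225-3p cells and 0.174 in scrambled cells (n = 5 each).

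SLC30A1, which carries zinc out across the plasma membrane and is the exporter that MTF1 drives, was 1.78-fold lower. Its normalized log2 signal was 9.10, 9.82, 9.43, 9.99 and 9.64 on miR-1225-3p replicates 1 to 5 and 10.28, 10.27, 10.59, 10.49 and 10.51 on scrambled replicates 1 to 5. All 5 miR-1225-3p arrays lay below all 5 scrambled arrays, and replicate 5 lay in the middle of its own group. The log2 ratio was -0.83 (SE 0.178, limma adjusted p = 0.0147; exact permutation p = 0.00794, two-sided, the smallest that 5 arrays against 5 allow). It was -0.84 without miR-1225-3p replicate 5, and -1.0 within slide 1 and -0.69 within slide 2. Leaving out any single array left SLC30A1 called, with log2 ratios from -0.93 to -0.70. The call rested on the scaling between arrays: with each array's 75th percentile subtracted the log2 ratio was -0.43 (limma adjusted p = 0.157), where the median of all genes was 0.16.

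The exporters of the secretory pathway behaved less uniformly. SLC30A5 and SLC30A6 form a pair, and SLC30A7 acts beside them in the Golgi, where they supply zinc to enzymes such as alkaline phosphatases. SLC30A5 measured 8.25, 8.46, 8.21, 8.62 and 7.87 on miR-1225-3p replicates 1 to 5 and 8.08, 8.19, 8.32, 8.16 and 8.13 on scrambled replicates 1 to 5, in normalized log2 signal. Replicates 2 and 4 of miR-1225-3p lay above every scrambled array and replicate 5 below every one. Its log2 ratio was 0.11 (SE 0.152, limma adjusted p = 0.589), with a 95% interval from -0.23 to 0.44. A second, dimmer probe, designed to another transcript record of SLC30A5, was detected well above background with 1 of 5 miR-1225-3p and 3 of 5 scrambled samples. Its log2 ratio was -0.80 (adjusted p = 0.115 over all kept probes from limma), the opposite sign to the brighter probe. Among kept probes, 35% were called. Without miR-1225-3p replicate 5 the dimmer probe was called lower, with -1.04 (limma adjusted p = 0.0273), and the brighter was not, with 0.21 (limma adjusted p = 0.163). The dimmer probe met the filter through its scrambled arrays alone, so its p-values and call are given as a description.

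SLC30A7 had a pair of probes for the same transcript record, and their readings differed. The representative probe measured 6.52, 6.0, 5.53, 5.52 and 6.84 on miR-1225-3p replicates 1 to 5 and 6.24, 6.35, 6.84, 6.68 and 7.12 on scrambled replicates 1 to 5, in normalized log2 signal. The groups overlapped through miR-1225-3p replicates 1 and 5. This gave a log2 ratio of -0.57 (SE 0.290, limma adjusted p = 0.140). The other SLC30A7 probe measured 7.63, 4.59, 3.11, 2.52 and 7.37 on miR-1225-3p replicates 1 to 5 and between 7.03 and 7.76 on the scrambled arrays. Replicates 1 and 5 lay inside the scrambled range while the other 3 lay far below it, and the probe cleared background in 2 of 5 miR-1225-3p and 5 of 5 scrambled samples. Its log2 ratio of -2.35 was not called (adjusted p = 0.0729 over all kept probes from limma). This second probe met the filter through its scrambled arrays alone, so its p-values and any call are given as a description. Without miR-1225-3p replicate 5 both SLC30A7 probes were called, with log2 ratios of -0.76 (limma adjusted p = 0.0311) and -2.93 (limma adjusted p = 0.0191). Of all genes tested, 55.4% were called without that array.

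SLC30A9, known for carrying zinc out of mitochondria, was lower in miR-1225-3p cells, near the limit of detection. Its normalized log2 signal was 4.71, 2.70, 3.53, 3.06 and 5.47 on miR-1225-3p replicates 1 to 5 and 6.42, 6.58, 6.34, 5.82 and 5.44 on scrambled replicates 1 to 5. Replicate 5 of miR-1225-3p lay above scrambled replicate 5, and the other 4 lay below the scrambled range. The log2 ratio was -2.23 (SE 0.505, limma adjusted p = 0.0157) and -2.62 without miR-1225-3p replicate 5. It was -2.36 within slide 1 (limma adjusted p = 0.0514) and -2.18 within slide 2. Its probe cleared background in 2 of 5 miR-1225-3p and 5 of 5 scrambled samples. SLC30A9 thus passed the filter only through the scrambled arrays, so its p-values are given as a description. From the median signal, with normexp background correction and an offset of 50 in place of the processed signal, the log2 ratio was -0.61 and still called, so its size is uncertain. Which of these changes shrank it was not tested.

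SLC39A1, an importer of the plasma membrane, was 3.05-fold lower. Its normalized log2 signal was 7.24, 6.95, 6.51, 6.17 and 8.55 on miR-1225-3p replicates 1 to 5 and 8.86, 8.57, 8.70, 8.64 and 8.70 on scrambled replicates 1 to 5. The groups did not overlap, but replicate 5 lay directly under the lowest scrambled array and over 1 log2 unit above the rest of its group. This amounts to a log2 ratio of -1.61 (SE 0.376, limma adjusted p = 0.0166; exact permutation p = 0.00794) and -1.98 without replicate 5. It was -1.66 within slide 1 and -1.52 within slide 2. Its probe cleared background throughout. From the median signal with normexp and the same offset the log2 ratio was -1.04, also called.

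SLC39A7, which releases zinc from the endoplasmic reticulum and Golgi into the cytosol, had the widest spread over the miR-1225-3p arrays of the 9 genes tested. Its normalized log2 signal was 9.07, 7.97, 6.90, 5.46 and 10.29 on miR-1225-3p replicates 1 to 5 and 10.00, 10.20, 10.32, 10.30 and 10.63 on scrambled replicates 1 to 5. Replicate 5 of miR-1225-3p lay within the scrambled range and the other 4 below it. From all arrays the log2 ratio was -2.35 (SE 0.749, limma adjusted p = 0.0365), with a 95% interval from -4.01 to -0.69. Within slide 1 it was -1.79 and within slide 2 -2.70. Single arrays decided the call. It held without miR-1225-3p replicate 1 (limma adjusted p = 0.0442) and without miR-1225-3p replicate 5 (log2 ratio -2.94, limma adjusted p = 0.00299), and was lost when any 1 of the other 8 arrays was left out, with limma adjusted p up to 0.0849 and log2 ratios no nearer to zero than -1.73.

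SLC39A6 and SLC39A10 are related importers of the plasma membrane that can form a complex with each other. SLC39A10 measured 5.12, 2.77, 3.35, 2.83 and 5.94 on miR-1225-3p replicates 1 to 5 and 6.18, 6.66, 6.52, 6.48 and 6.05 on scrambled replicates 1 to 5, in normalized log2 signal. The groups did not overlap, with replicate 5 again next to the scrambled arrays. The log2 ratio of SLC39A10 was -2.37 (SE 0.585, limma adjusted p = 0.0185; exact permutation p = 0.00794) and -2.86 without replicate 5. It was -2.30 within slide 1 (limma adjusted p = 0.0603) and -2.53 within slide 2. Like that of SLC30A9, its probe cleared background in 2 of 5 miR-1225-3p and 5 of 5 scrambled samples. With normexp on the median signal the log2 ratio was -0.70, still called. SLC39A10 too passed the filter only through the scrambled arrays, so its p-values and calls are given as a description. The share of all spots well above background also had a lower median with miR-1225-3p (47.06% against 54.56%), and its part in the results for SLC30A9 and SLC39A10 was not tested.

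SLC39A6 measured 7.93, 7.99, 8.15, 8.40 and 7.73 on miR-1225-3p replicates 1 to 5 and 7.92, 7.90, 7.85, 7.77 and 7.68 on scrambled replicates 1 to 5, in normalized log2 signal. Replicates 1 to 4 of miR-1225-3p lay above every scrambled array, and replicate 5 lay among them. SLC39A6 thus had a log2 ratio of 0.22 (SE 0.144, limma adjusted p = 0.246), with a 95% interval from -0.10 to 0.53. The difference between the partners' log2 ratios, SLC39A6 minus SLC39A10, was 2.59 (SE 0.745) from the processed signal and 0.85 (SE 0.237) with normexp on the median signal. SLC39A10 passed the filter only through the scrambled arrays, so this difference is given as a description, with no test, and its size is uncertain.

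**Figure D2:**
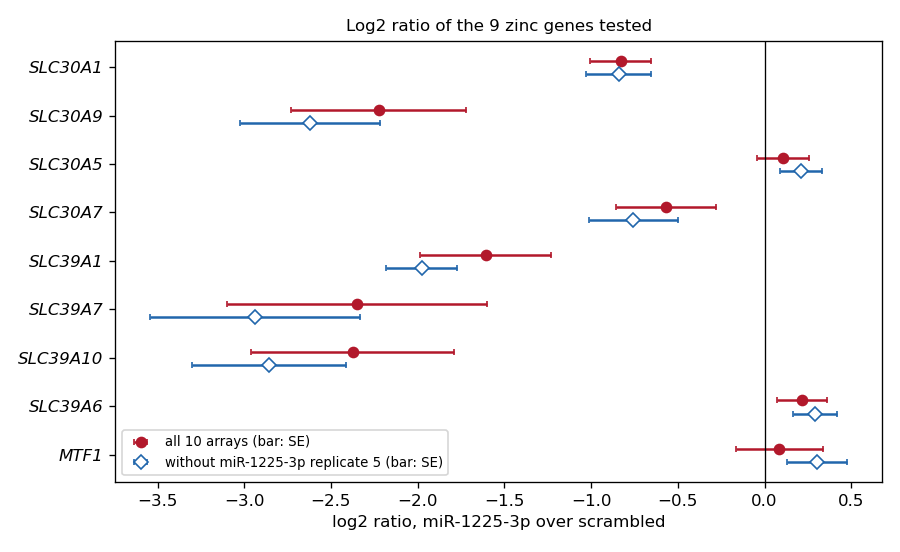
Log2 ratio of miR-1225-3p over scrambled (horizontal axis) for the 9 tested zinc genes, with all 10 arrays (filled circles) and without miR-1225-3p replicate 5 (open diamonds), bars giving the standard error. SLC30A1 barely moves when that array is left out, from -0.83 to -0.84, while SLC39A7 goes from -2.35 to -2.94 and MTF1 from 0.09 to 0.30.

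Set against all genes tested, the falls of SLC39A7 and SLC39A1 were large in size: 96.7% and 91.6% of genes tested, in that order, had a log2 ratio of the same or smaller absolute size. SLC39A10 and SLC30A9 are not placed in this way, since most of their miR-1225-3p arrays were near background. For SLC30A1 this share was 70.8%, and for MTF1 it was 8.92%. The median absolute log2 ratio of all genes tested was 0.506. SLC30A1 was thus called with a modest fall and a small spread, and SLC39A7 with a large fall and a wide spread.

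The genes also differed in where miR-1225-3p replicate 5 fell. Of the 5 genes called lower, replicate 5 was the highest miR-1225-3p array for 4 (SLC30A9, SLC39A1, SLC39A7 and SLC39A10) and not for SLC30A1. Over all genes called lower with no missing value, replicate 5 was the highest of its group for 90% of 3134. Replicate 5 lay below all 5 scrambled arrays for 5 of the 9 zinc genes tested (MTF1, SLC30A1, SLC30A5, SLC39A1 and SLC39A10), for 28.9% of the genes called lower and for 17% of the 17303 genes tested with no missing value. The median distance of the 9 zinc genes from their scrambled means was 0.309 log2 units on replicate 5, between 0.647 and 1.22 on the other miR-1225-3p arrays, and between 0.0559 and 0.228 on the scrambled arrays.

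Metallothioneins, the best known MTF1 targets, were read as the companion list. Of 11 listed genes, 10 were tested (MT4 did not pass the filter), 9 were lower in miR-1225-3p cells and MT3 was not called (log2 ratio -0.93, limma adjusted p = 0.062). Without miR-1225-3p replicate 5 MT3 was called too, with -1.19 (limma adjusted p = 0.0081). Their median log2 ratio was -0.99, with all 10 values negative, and the groups did not overlap for 7 of them. Of all genes tested, 18.1% were called lower and 12.7% had groups that did not overlap. The largest metallothionein falls were those of MT1F with -1.99, MT1X with -1.35 and MT1H with -1.21, with limma adjusted p from 0.0136 to 0.0161. The others called were MT1B with -1.06, MT1M with -1.04, MT1E with -0.95, MT1A with -0.94, MT1G with -0.84 and MT2A with -0.82. On replicate 5, 8 of the 10 lay below all scrambled arrays. These counts rested on the scaling: all 10 values stayed negative with each array's 75th percentile subtracted, with quantile normalization and without normalization, but the number called lower was 1, 9 and 1, in that order, and the median log2 ratio -0.44, -0.80 and -0.87. Of all 17379 genes tested, 2585, 2511 and 1092 were called lower in these settings, with median log2 ratios of 0.16, 0.08 and -0.26.

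MT1X, the metallothionein with the lowest adjusted p, was measured by a pair of probes. The brighter read 13.90, 14.58, 14.19, 14.26 and 14.97 on miR-1225-3p replicates 1 to 5 and between 15.35 and 16.29 on the scrambled arrays, in normalized log2 signal. The dimmer read 5.82, 6.32, 6.21, 6.13 and 12.05 on miR-1225-3p replicates 1 to 5 and between 12.36 and 13.11 on the scrambled arrays. Neither probe's groups overlapped, and replicate 5 lay next to the scrambled arrays on the dimmer probe and apart from them by less than the others on the brighter one. The log2 ratio was -1.35 (SE 0.239) on the brighter and -5.34 (SE 1.06) on the dimmer probe. MT1H likewise had a brighter probe with -1.21 and a dimmer one with -0.13. Metallothionein genes are near copies of each other, and signal shared between them cannot be told apart from each gene's own.

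**Figure D3:**
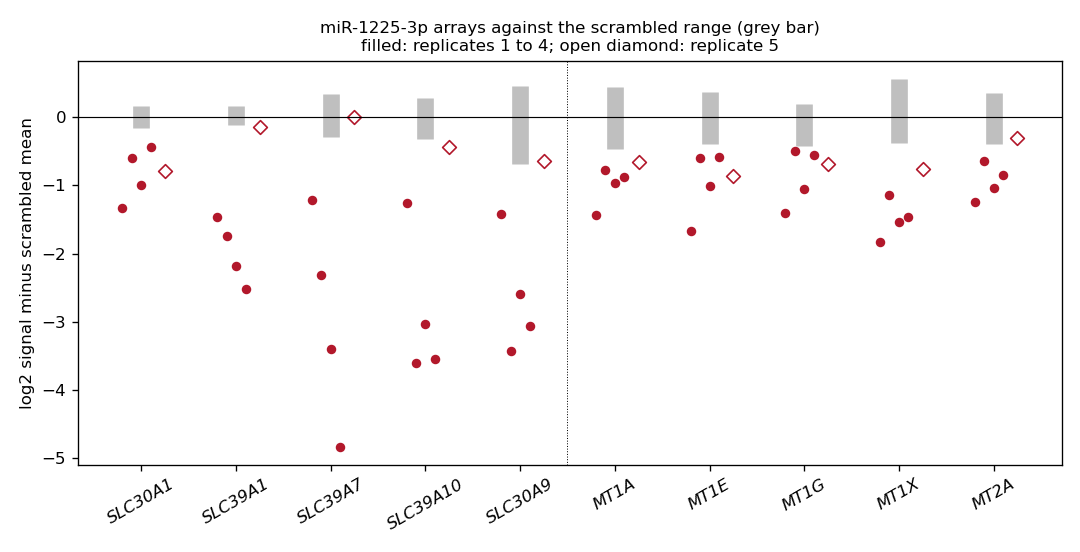
Log2 signal minus the mean of the 5 scrambled arrays (vertical axis) for the 5 zinc genes called lower and, right of the dotted line, 5 metallothioneins; grey bars span the scrambled arrays, filled points are miR-1225-3p replicates 1 to 4 and open diamonds replicate 5. Replicate 5 lies below the grey bar for SLC30A1, MT1A, MT1E, MT1G and MT1X, within it for SLC39A7, SLC30A9 and MT2A, and just under its lower end for SLC39A1 and SLC39A10.

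The other zinc transporters were read in the same way. Of 16 listed, 8 were tested, with a median log2 ratio of -0.11. Among these 1 was called higher, 1 lower and 6 not, where 17% of all genes tested were called higher and 18.1% lower. SLC39A8, an importer of zinc, manganese and other metals, was the one called higher. Its normalized log2 signal was 11.34, 11.29, 11.26, 11.15 and 10.61 on miR-1225-3p replicates 1 to 5 and between 10.60 and 10.71 on the scrambled arrays, so that replicates 1 to 4 lay above every scrambled array and replicate 5 inside their range. The log2 ratio was 0.48 (SE 0.154, limma adjusted p = 0.0368) and 0.61 without replicate 5 (limma adjusted p = 6.81e-04), the only array whose removal left SLC39A8 called.

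SLC39A9 was the one called lower. It measured 5.62, 5.99, 4.97, 6.30 and 5.95 on miR-1225-3p replicates 1 to 5 and 7.24, 6.42, 6.43, 6.46 and 6.23 on scrambled replicates 1 to 5, in normalized log2 signal, with miR-1225-3p replicate 4 just above the lowest scrambled array. The log2 ratio was -0.79 (SE 0.271, limma adjusted p = 0.0453), which stayed past the threshold when 2 of the 10 arrays were left out in turn and not for the other 8. SLC39A3 had the largest absolute log2 ratio of the list, -1.38, and was not called (limma adjusted p = 0.076). Without miR-1225-3p replicate 5 it was called (log2 ratio -1.80, limma adjusted p = 0.00981). Its probe cleared background in 1 of 5 miR-1225-3p and 4 of 5 scrambled samples. SLC39A3 thus met the filter through its scrambled arrays alone, so its p-values and call are given as a description.

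Of the alkaline phosphatases, which take up their zinc in the secretory pathway, 2 of the listed genes were tested. ALPP was lower, with a log2 ratio of -0.67 (SE 0.220, limma adjusted p = 0.0403), and ALPG was not called, with -0.60 (limma adjusted p = 0.130). Without miR-1225-3p replicate 5 both were called, each with a log2 ratio of -0.79 (limma adjusted p = 0.00985 for ALPP and 0.034 for ALPG). ALPP was called when 2 of the 10 arrays were left out in turn and not for the other 8. With normexp on the median signal ALPP was not called, with -0.22 (limma adjusted p = 0.135). Nor was it with quantile normalization (limma adjusted p = 0.0675), though it was with each array's 75th percentile subtracted (limma adjusted p = 0.0375). GPR39, a zinc-sensing receptor, did not pass the filter.

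Genes with the array profile nearest to MTF1 and SLC30A1 were found by the root mean square difference of log2 signals over the 10 arrays, after subtraction of each gene's mean, among 11985 genes that were well above background throughout. For MTF1 they were LAIR1 at 0.088, a transcript with no matched symbol at 0.0929 and MSANTD4 at 0.108 log2 units. For SLC30A1 they were DHRS3 at 0.127, MED26 at 0.135 and KLF11 at 0.149 log2 units, with log2 ratios of -0.84, -0.75 and -0.91. The 10 arrays share the same processing, and no more is read from this likeness.

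The promoters were searched for the core of the metal response element, the site that MTF1 is known to bind, because SLC30A1 and the metallothioneins are its textbook targets. The core was taken as TGCACNC or TGCGCNC, on both strands, in the RefSeq table of GRCh38.p14, which holds 250 bases before and 50 after each start site. At least 1 match was in 29.6% of all 35116 promoters and 2 or more in 8.6%. Among 12 promoters found for the 10 zinc genes, 5 held a match, 1 each for SLC30A6, SLC39A1, SLC39A6 and SLC39A10, and only SLC30A1 held 2. The MTF1, SLC30A5, SLC30A7, SLC30A9 and SLC39A7 promoters held none. Of the 11 metallothioneins listed, 5 had a promoter in the table, with 3 matches for MT1B, 8 for MT1H, 4 for MT1X, 8 for MT2A and 3 for MT4. A match is a stretch of letters and no measure of binding.

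The 100 bases before the start site are shown for SLC30A1 and for the metallothioneins MT1X and MT2A, to set the single match of the exporter in this window, 49 bases before its start, beside the 2 of MT1X and 3 of MT2A. Capitals mark the matches, on either strand, and all are written 5′ to 3′ along the gene, from GRCh38.p14: chr1:211579162-211579261 (minus strand) for SLC30A1, chr16:56682370-56682469 (plus strand) for MT1X and chr16:56608484-56608583 (plus strand) for MT2A.
SLC30A1: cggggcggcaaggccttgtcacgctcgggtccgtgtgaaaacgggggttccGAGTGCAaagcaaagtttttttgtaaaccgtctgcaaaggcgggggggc
MT1X: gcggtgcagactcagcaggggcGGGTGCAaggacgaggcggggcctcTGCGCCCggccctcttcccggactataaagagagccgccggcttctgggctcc
MT2A: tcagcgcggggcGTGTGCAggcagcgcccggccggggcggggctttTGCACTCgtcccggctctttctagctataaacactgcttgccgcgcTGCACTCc

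The log2 ratios of these 3 genes were -0.83 for SLC30A1, -1.35 for the brighter probe of MT1X and -0.82 for MT2A, each called lower by limma (adjusted p between 0.0136 and 0.022). The differences between them were not tested.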

How the data were processed

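Total RNA of 10 MEG-01 cultures was hybridized to single-colour (Cy3) Agilent arrays. Spot intensities were extracted and background-corrected by the authors with Agilent Feature Extraction before they were deposited, version 10.7.3.1 per the labels (the methods give another). Used here were the processed intensity, the median intensity and its local background. They also deposited normalized log2 values for 29271 probes, with column medians between 4.77 and 5.15. These correlated at 0.846 to 0.985 per array, after centring each probe, with the values computed here, and their exact scaling is not known.

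Processed intensities were taken to log2 and brought to a common scale with cyclic loess in 3 iterations (R 4.3.3, limma 3.58.1). After removal of 4259 control spots per array and of spots carrying an outlier flag, the spots of each probe were averaged. The filter required a signal well above background with 3 or more of the 5 arrays of a group, which 20648 probes met, and the brightest such probe stood for its gene (17379 genes). Symbols came from transcript accessions through RefSeq for 24910 of 42405 probes. The comparison of groups used lmFit and eBayes of limma, adjusted by Benjamini-Hochberg over all genes at 0.05, and single genes were compared with a two-sided exact permutation test. Fits without an array kept the 10-array normalization. The script was tested on simulated data.

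Genes named were all 10 zinc genes with every probe, genes of the zinc lists that were called or were among the 3 largest changes of their list, and the 3 nearest profiles to MTF1 and SLC30A1. These members and lists were chosen with earlier results of these data known. Alternatives covered scaling, source of values, background correction, filter, outlier flags, probe choice, test, array weights, replicate and slide blocks, each slide alone, and leaving out each array. Slides were read from the file headers. Replicate numbers were not used as pairs in the main fit. Deviations of same-numbered arrays correlated between -0.401 and 0.0723, which cannot exclude a pairing. Some marker genes are not reported here.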

Additional observations from a re-analysis of the deposited data

Results flagged for a closer look

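Of 58 groups of 5 arrays examined for the zinc genes and lists, 6 had 1 array far from the other 4, where chance alone gives about 1 in 20. For 2 of the 6 that array was miR-1225-3p replicate 5: SLC39A8 read 10.61 there and at least 11.15 on the other miR-1225-3p arrays, and SLC39A4 read 11.24 there and at most 11.00 on the others, in normalized log2 signal. On scrambled arrays, SLC30A3 read 7.06 on replicate 5 and at most 6.66 elsewhere, and MT1G read 11.28 on replicate 5 and at least 11.77 elsewhere. SLC39A3 read 3.66 on scrambled replicate 2 and at least 5.51 on the others. SLC39A9 read 7.24 on scrambled replicate 1 and at most 6.46 on the others.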

How the results depend on the processing

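Apart from the replicate block, SLC30A1 kept its direction in all 25 alternatives and its call in 22. With that block again set aside, SLC39A1 kept its call in 23 of 25 and SLC39A7 in 12 of 25. For SLC30A9 and SLC39A10 the count was 22 of 24, given as a description and no measure of robustness. Both genes passed the filter only through the scrambled arrays. They were not tested in the strictest filter setting, which asked for clear signal from every array. With 1 array left out, between 4 and 6 zinc genes were called lower, 0 higher in each case, 7 to 15 of the other zinc genes in either direction (12 with all arrays) and 2129 to 9624 of all genes. With the replicate block 0 zinc genes, 0 other zinc genes and 0 of all genes were called by limma (7474 genes at an unadjusted p under 0.05, 5 of them zinc genes, with adjusted p from 0.0518 to 0.0582). Within slide 2 limma called 0 genes (1220 unadjusted, 2 of them zinc genes), so 0 members of either list. Within slide 1, 3 zinc genes and 4 other zinc genes were called, among 25.9% of all genes. Without normalization between arrays 1266 genes were called, 2 of the zinc genes lower and 1 other zinc gene. With the 75th percentile subtracted 7147 genes were called, 5 of them other zinc genes. Array weights called 12041 genes, 6 zinc genes lower and 2 higher (SLC30A5 and SLC39A6). No filter on dim probes left 3411 genes called. Restricting to probes well above background on all 10 arrays left 6 zinc genes tested and 3 called, where 39% of all genes tested were. The cause of these shifts was not tested, except that the last tests fewer genes and single slides hold fewer arrays.

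The sign of genes that were not called turned in some settings. The log2 ratio of MTF1 was -0.31 without normalization, -0.0392 within slide 2 and between -0.0735 and 0.30 with 1 array left out. SLC30A5 was -0.11 without normalization and -0.35 as the mean of its probes, and SLC39A6 was -0.0327 without normalization. The split of called genes, 51.6% lower, moved to 36.2% with the 75th percentile, 40.9% with quantile normalization, 43.5% with the methods' t-test (4677 called) and 86.3% without normalization. Signals near background limit SLC30A9, SLC39A10 and the second probes of SLC30A5 and SLC30A7.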
